A study of Mus musculus with 116 samples.

Results

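The genes followed here encode the replicative DNA helicase of the cell: the ring subunits Mcm2, Mcm3, Mcm4, Mcm5, Mcm6 and Mcm7, the activating factor Cdc45, and Gins2, a subunit of the GINS complex. They were chosen by symbol, current or older, among the probes of a spotted 2-colour mouse array, which gave 8 genes on 9 probes of 21797 tested probes and 15097 named genes in all. Gins2 had 2 probes, called A and B here; each other gene had 1.

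The study followed FDB1, a mouse myeloid cell line that depends on a growth factor, over 72 h after interleukin-3 (IL-3) was taken away. All cells grew first in 500 U/mL IL-3 with 10% serum and were washed 3 times at 0 h. Parental FDB1 cells then went into 500 U/mL GM-CSF, whereas FDB1 cells carrying the receptor mutant V449E and FDB1 cells carrying the receptor mutant FI-Delta were left without factor, and RNA was taken at 0, 6, 12, 24, 48 and 72 h. V449E and FI-Delta are known as activated mutants of the beta chain that the IL-3 and GM-CSF receptors share. The labels do not say whether either mutant line is 1 clone. Parental cells at 0 h stand for both the IL-3 state and the start of the GM-CSF course. The 18 conditions had 2 replicates each, so 36 RNAs were set against each other on 116 arrays in 58 dye-swapped pairs that covered 28 comparisons.

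Mcm2 to Mcm7 form a hexameric ring that is loaded onto replication origins in G1 phase by the origin recognition complex with Cdc6 and Cdt1. In S phase Cdc45 and GINS join the ring, and the assembly, known as the CMG complex, unwinds the DNA ahead of the polymerases. Transcription of most of these genes is known to be driven by E2F factors as cells enter the cycle, and in myeloid cells it is known to be shut off as they mature and leave the cycle.

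In the RefSeq annotation of GRCm38.p6, Mcm3 lies at chr1:20802966-20820312 and Mcm6 at chr1:128331575-128359705. Mcm7 lies at chr5:138164583-138172111, Mcm2 at chr6:88883474-88898780 and Mcm5 at chr8:75109468-75128439. Gins2 lies at chr8:120581266-120589075, Mcm4 at chr16:15623897-15637400 and Cdc45 at chr16:18780447-18811972. The exon or UTR to which each spotted probe maps is not given in the sources used here.

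Promoter windows of 300 bases, from 250 before to 50 after the annotated start, were available from RefSeq for 6 of the 8 genes (Mcm7 had 2 windows; Mcm4 and Gins2 were not matched). They were searched on both strands for the E2F consensus spelled as TTTGGCGC, TTTCCCGC, TTTCGCGC or TTTGCCGC, and for CCAAT. An E2F spelling stood in windows of 4 of the 6 genes, Mcm3, Mcm5, Mcm6 and Mcm7, and in none of the windows of Mcm2 and Cdc45, against 704 of 27025 genes in all (2.6%) and 2.26% of 32851 windows. CCAAT stood in windows of all 6, against 41.1% of all genes. The stretches below are shown because the genes differ in how far their RNA moved, Mcm6 and Mcm3 most, Mcm5 less and Mcm7 little. Each runs 5′ to 3′ on the gene's strand, and capitals mark the E2F spellings. In Mcm6, 2 spellings overlap on opposite strands from -110 to -99 and 1 more lies at -47 to -40, counted from the start. In Mcm5, 2 spellings overlap from -153 to -142. Cdc45, shown for comparison, has none, and its RNA spanned 1.00 on the log2 scale, more than Mcm5 (0.75) and Mcm7 (0.42). Mcm2, also without a spelling, spanned 0.87. A link between these spellings and how far the RNA moved was not tested. In the 30 bases of Mcm3 the spellings lie after the start, at 20 to 27 and 39 to 46. The same window of Mcm7 has 1 more at 17 to 24, overlapping a CCAAT and outside the stretch shown, and its other window has none. For Mcm5 and Mcm7 the annotated start of the window lies inside the gene span given above. Their stretches below therefore lie partly (Mcm5) or mostly (Mcm7) within that span.
Mcm6 (chr1:128359706-128359955, minus strand): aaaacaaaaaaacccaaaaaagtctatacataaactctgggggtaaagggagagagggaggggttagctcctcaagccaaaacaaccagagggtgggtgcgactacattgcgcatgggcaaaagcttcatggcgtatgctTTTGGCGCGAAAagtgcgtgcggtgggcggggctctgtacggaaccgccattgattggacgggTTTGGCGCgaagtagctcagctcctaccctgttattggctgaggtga
Mcm3 (chr1:20820266-20820295, minus strand): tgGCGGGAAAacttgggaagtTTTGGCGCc
Mcm5 (chr8:75109259-75109508, plus strand): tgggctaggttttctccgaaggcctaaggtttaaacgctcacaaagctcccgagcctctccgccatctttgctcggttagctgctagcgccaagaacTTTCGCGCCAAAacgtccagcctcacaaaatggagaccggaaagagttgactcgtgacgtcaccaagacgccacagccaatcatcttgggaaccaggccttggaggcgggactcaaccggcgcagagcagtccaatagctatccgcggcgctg
Mcm7 (chr5:138171884-138172133, minus strand): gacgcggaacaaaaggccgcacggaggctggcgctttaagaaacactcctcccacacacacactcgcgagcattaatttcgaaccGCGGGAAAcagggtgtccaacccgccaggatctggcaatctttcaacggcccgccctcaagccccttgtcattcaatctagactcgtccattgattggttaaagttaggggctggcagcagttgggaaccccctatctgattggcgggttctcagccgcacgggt
Cdc45 (chr16:18811973-18812222, minus strand): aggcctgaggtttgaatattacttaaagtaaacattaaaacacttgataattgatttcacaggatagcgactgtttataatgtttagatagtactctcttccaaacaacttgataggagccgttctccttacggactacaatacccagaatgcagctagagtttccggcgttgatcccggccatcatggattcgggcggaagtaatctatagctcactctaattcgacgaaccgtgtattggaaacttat
A match is a run of letters and was not tested as a binding site; the array data bear on RNA only.

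The arrays give ratios, so a level here is the log2 RNA level of a probe in 1 RNA relative to the mean of the 18 RNAs of its replicate, worked out from all arrays of that replicate. A difference of 1 on this scale is 2-fold. The log base and the direction of the ratios, Cy5 over Cy3, are likely rather than stated; were they Cy3 over Cy5, every higher and lower, rise and fall given here would turn over. A member is said to have risen or fallen where limma's moderated test gave an adjusted p (Benjamini-Hochberg over all 21797 probes of that comparison) under 0.05. The labels do not say that replicates were separate cultures, and each p-value therefore reflects just the scatter among these RNAs, which may be technical. RNA was from bulk cells, in which fewer cells in S phase and less RNA per cell cannot be told apart, and ratios give no level by which markers could check the labelled cell type. The 9 probes were reproducible: their levels over the 18 conditions correlated between the replicates at a median r of 0.73, against 0.32 for all probes, and their mean levels spanned a median of 0.87 on the log2 scale, against 0.32.

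Apart from Mcm7, the mean levels of the ring genes shared a time profile. It had a trough at 6 to 12 h after IL-3 removal in each line and, in FI-Delta cells, a second low point at 72 h. This describes means. In V449E cells no member change from 0 h passed the test (0 of 45 results). In FI-Delta cells no ring gene passed from 12 to 48 h or from 48 to 72 h. For Mcm5 in FI-Delta cells, replicate 1 changed by just -0.03 at 6 h and -0.07 at 12 h. Mcm6, a ring subunit, spanned most, 1.17 on the log2 scale or 2.25-fold. Its level was highest in parental cells at 0 h, at 0.72 and 0.39 in replicates 1 and 2. In parental cells in GM-CSF it stood at 0.50 and 0.11 at 6 h, -0.27 and -0.10 at 12 h, 0.43 and 0.21 at 24 h, 0.55 and 0.35 at 48 h and 0.26 and 0.28 at 72 h. It was thus below the mean in both replicates at 12 h and above it at every other time.

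In V449E cells the Mcm6 level was 0.04 and -0.01 at 0 h, -0.41 and 0.01 at 6 h, -0.43 and -0.40 at 12 h, -0.04 and 0.17 at 24 h, 0.12 and 0.28 at 48 h and 0.25 and 0.10 at 72 h. In FI-Delta cells it was 0.11 and 0.29 at 0 h, -0.25 and 0.04 at 6 h, -0.41 and -0.67 at 12 h, -0.18 and -0.31 at 24 h, -0.22 and -0.26 at 48 h and -0.76 and -0.47 at 72 h. V449E cells were back at or above their starting level by 48 h in both replicates, whereas no FI-Delta RNA after 0 h reached its own replicate's level at 0 h. The 18 mean levels of Mcm6 were put in order, from FI-Delta at 72 h (-0.62) to parental cells at 0 h (0.55). Of the 17 steps between neighbours, 1 exceeded the standard error of a difference (0.15), that from V449E at 12 h (-0.41) to FI-Delta at 24 h (-0.25). That step of 0.167 is barely above the standard error and does not show a difference. Sorted means lie near their neighbours in any data, so the order between neighbours is not resolved.

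Mcm3 and Mcm4, also ring subunits, spanned 1.09 and 1.06. The lowest Mcm3 level was in FI-Delta cells at 72 h (-0.71 and -0.34) and the highest in parental cells at 0 h (0.52 and 0.61). Mcm4 was lowest in V449E cells at 12 h (-0.28 and -0.66) and highest in parental cells at 48 h of GM-CSF (0.64 and 0.53). In both genes the replicates of these extremes did not overlap. The extremes were picked as lowest and highest of the 18 conditions, so this is no test.

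Cdc45, which joins the ring when an origin fires, spanned 1.00, from -0.41 and -0.62 in V449E cells at 12 h to 0.52 and 0.44 in parental cells at 48 h. Mcm2 spanned 0.87, from -0.55 and -0.41 in V449E cells at 6 h to 0.31 and 0.47 in parental cells at 48 h. Mcm5 spanned 0.75, and Gins2 probe B 0.68. Mcm7 spanned 0.42 and Gins2 probe A 0.39, the smallest of the 9 probes. Among the orders of the 9 probes, the number of steps above the standard error ran from 0 of 17 (Mcm4 and Mcm5) to 3 of 17 (Cdc45).

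**Figure D1:**
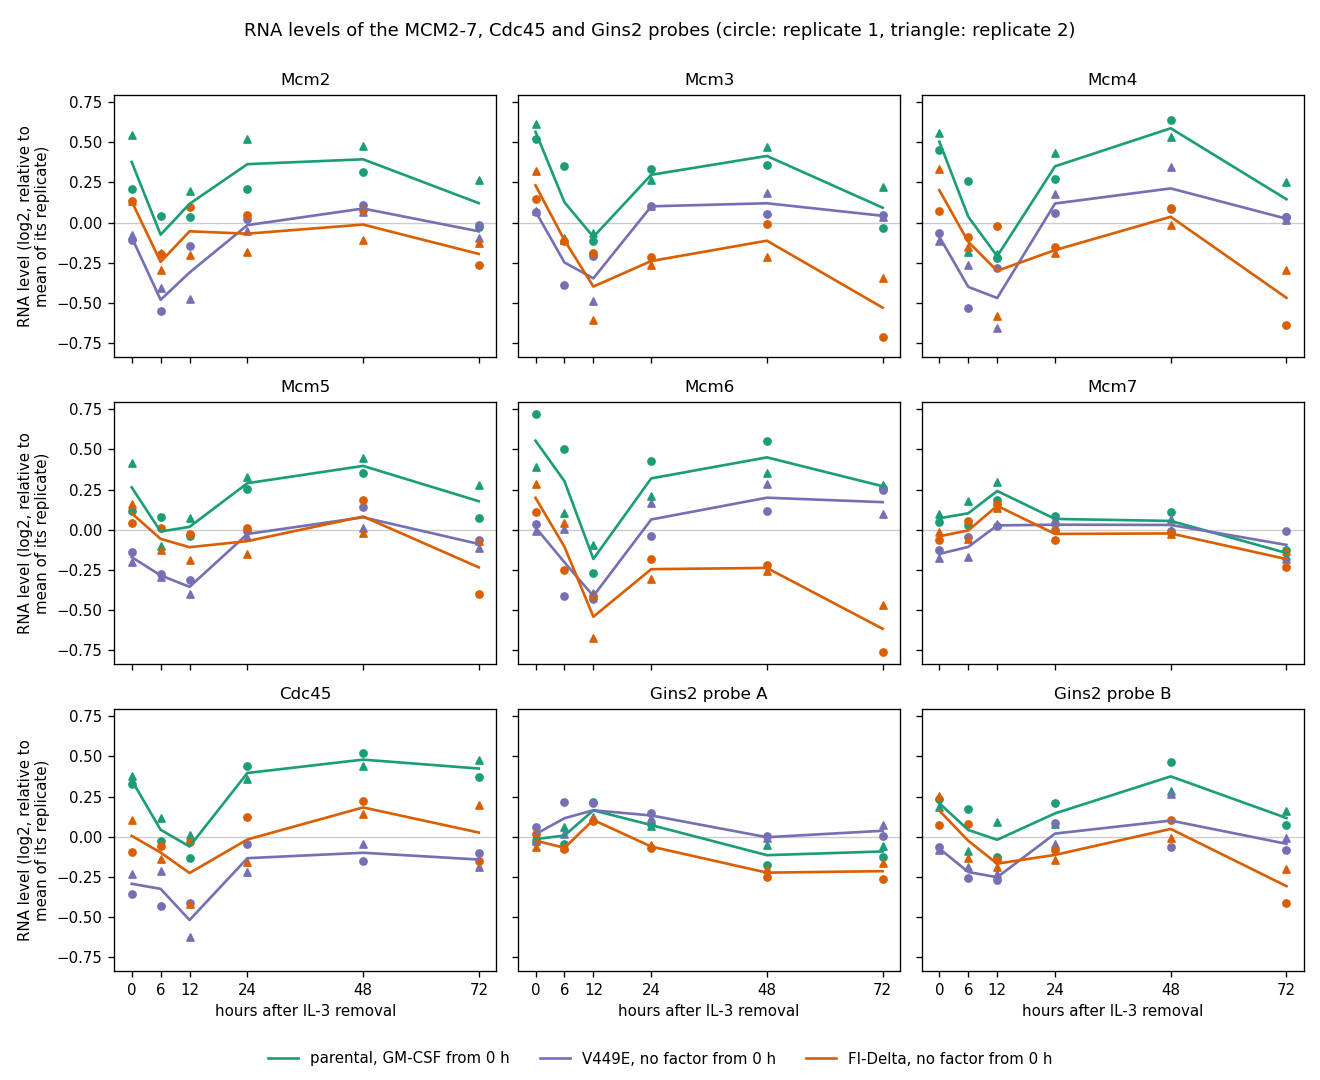
RNA level (log2, relative to the mean of the replicate's 18 RNAs) of each probe against hours after IL-3 removal, in parental cells moved to GM-CSF (green), V449E cells (purple) and FI-Delta cells (orange); circles and triangles are replicates 1 and 2 and lines join their means. Mcm3, Mcm4 and Mcm6 dip at 12 h in each line and reach -0.53, -0.47 and -0.62 in FI-Delta cells at 72 h, whereas Mcm7 and Gins2 probe A stay within a narrow range.

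Between genes, the profiles over 18 conditions correlated closely for Mcm3 and Mcm6 (r = 0.97), Gins2 probe B and Mcm4 (0.97) and Mcm3 and Mcm4 (0.95). The points share RNAs and arrays, so these are descriptions. Mcm7 correlated with the other ring genes at 0.11 to 0.38 only. The 2 Gins2 probes disagreed with each other (r = -0.22), probe B following the ring genes and probe A not, so a statement on Gins2 depends on which probe is read.

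In parental cells moved from IL-3 to GM-CSF, Mcm3, Mcm4 and Mcm6 fell at 12 h, and no member passed the test at 6, 24, 48 or 72 h. Mcm3 changed by -0.63 and -0.67 in replicates 1 and 2, a fall of 1.57-fold (log2 -0.65, SE 0.14, adjusted p = 0.017 by limma). Mcm4 changed by -0.67 and -0.75 (1.64-fold lower, log2 -0.71, SE 0.16, adjusted p = 0.0194). Mcm6 changed by -0.98 and -0.49 (1.66-fold lower, log2 -0.74, SE 0.15, adjusted p = 0.0109). For each of the 3 genes, both replicates and 4 of 4 direct arrays were below 0.

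These 3 were of 9 probes (33.3%), against 2.92% of all probes at 12 h. The background was 0.44% at 6 h, 1.1% at 24 h, 1.32% at 48 h and 5.47% at 72 h, where limma called no member. At these times 5, 0, 0 and 3 of 9 had an unadjusted p under 0.05 by limma, against 2318, 2194, 2195 and 3619 of all 21797 probes. The median of the 9 probes was -0.28 at 6 h and -0.26 at 12 h, while the median of all probes lay at 0.00 and 0.01. Cdc45 stood at -0.31 at 6 h and -0.41 at 12 h (adjusted p = 0.0735), and Mcm2 at -0.45 at 6 h (adjusted p = 0.157). Mcm7 and Gins2 probe A lay above 0 at 12 h, at 0.17 and 0.18. At 48 h the 9 probes ranged from -0.15 for Mcm3 to 0.17 for Gins2 probe B, and at 72 h Mcm3 stood at -0.47 (adjusted p = 0.0558).

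Replicate 1 of this course was hybridised on the first print run of slides and replicate 2 on the second, so replicate and print run cannot be told apart on the arrays that set 12 h directly against 0 h. Within a run, those dye-swap pairs gave -0.63 (first) and -0.66 (second) for Mcm3, -0.63 and -0.75 for Mcm4, and -0.95 and -0.47 for Mcm6; the replicate values above also draw on arrays of the other run. On arrays of the first run alone, which leaves a lone replicate at 12 h, Mcm4 was not called (-0.72, adjusted p = 0.0535). The fall of Mcm3 was no longer called without replicate 1 of the 12 h cells (-0.63, adjusted p = 0.147) or replicate 1 or 2 of the 0 h cells (-0.70 and -0.60, adjusted p = 0.0933 and 0.066). That of Mcm6 was not called without replicate 1 at 12 h (-0.65, 0.147) or at 0 h (-0.56, 0.211), and that of Mcm4 without any 1 of the 4 RNAs (-0.77 to -0.66, adjusted p 0.0561 to 0.149). Late neutrophil markers had a median of -0.48 at 12 h, ranging from -1.92 to 0.08, with 0 of 9 called, and 1 of 7 primary granule probes fell (Elane, -1.26); their part in the result was not tested.

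In V449E cells left without factor, no member passed the test at any time (0 of 45 results by limma, of which 10 had an unadjusted p under 0.05 and 7 were called when dye-swap pairs were fitted directly). The background was 0.702% at 6 h, 1.28% at 12 h, 1.45% at 24 h, 0.00459% at 48 h and 0% at 72 h, so few probes of any kind passed. In that order, 2, 5, 1, 2 and 0 of 9 had an unadjusted p under 0.05 by limma, against 1713, 2467, 2356, 1407 and 933 of all 21797 probes. At 12 h the change was -0.27 and -0.56 for Mcm3, -0.22 and -0.54 for Mcm4, and -0.47 and -0.39 for Mcm6. The fitted values were -0.42 (adjusted p = 0.183), -0.38 (0.323) and -0.43 (0.191), each below 0 in both replicates. At 6 h Mcm2 stood at -0.44 and -0.33 (log2 -0.39, adjusted p = 0.284). At 24 h all 9 probes lay above 0, from 0.03 for Mcm3 to 0.21 for Mcm4. At 72 h they ranged from -0.03 for Mcm3 to 0.16 for Mcm6, and none had an unadjusted p under 0.05.

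In FI-Delta cells left without factor, Mcm3 and Mcm6 fell at 12 h, and at 72 h Mcm3, Mcm4, Mcm5, Mcm6 and Gins2 probe B fell. At 12 h Mcm3 changed by -0.33 and -0.93 (1.55-fold lower, log2 -0.63, SE 0.14, adjusted p = 0.0122). Mcm6 changed by -0.52 and -0.96 (1.67-fold lower, log2 -0.74, SE 0.15, adjusted p = 0.00586). Mcm4 changed by -0.09 and -0.91 and did not pass (log2 -0.50, adjusted p = 0.0743). The replicates thus agreed in direction but replicate 2 moved further, most of all for Mcm4.

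The 2 called probes at 12 h were 22.2% of 9, against 5.06% of all probes. The background was 0.725% at 6 h, 1.42% at 24 h and 4.44% at 48 h, times at which limma called no member. At these times 2, 4 and 3 of 9 had an unadjusted p under 0.05 by limma, against 2053, 2558 and 3230 of all 21797 probes. At 24 and 48 h Mcm3 stood at -0.47 and -0.34, and Mcm6 at -0.44 and -0.44, with adjusted p from 0.111 to 0.226. Without replicate 2 of the 12 h or the 0 h cells, Mcm3 at 12 h was not called (-0.41 and -0.54, adjusted p = 0.31 and 0.192), nor was Mcm6 (-0.60 and -0.65, adjusted p = 0.147 and 0.119). Without replicate 1 at 12 h, Mcm4 was called (-0.80, adjusted p = 0.0125).

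At 72 h Mcm6 changed by -0.87 and -0.76 (1.76-fold lower, log2 -0.81, SE 0.15, 95% interval -1.12 to -0.50, adjusted p = 0.000619). Mcm3 changed by -0.86 and -0.66 (1.69-fold lower, log2 -0.76, SE 0.14, 95% interval -1.06 to -0.46, adjusted p = 0.000777). Mcm4 changed by -0.71 and -0.63 (1.59-fold lower, log2 -0.67, SE 0.16, adjusted p = 0.00593). In these 3 ring genes the fitted changes of the replicates lay close together, and 4 of 4 direct arrays were below 0. The direct dye-swap pairs of replicates 1 and 2 gave -1.13 and -0.637 for Mcm3, -0.929 and -0.763 for Mcm4, and -0.845 and -0.837 for Mcm6.

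Mcm5 changed by -0.44 and -0.23 (1.26-fold lower, log2 -0.34, SE 0.11, adjusted p = 0.0386). Gins2 probe B changed by -0.48 and -0.46 (1.38-fold lower, log2 -0.47, SE 0.11, adjusted p = 0.00426), whereas probe A stood at -0.19 (adjusted p = 0.0657). Mcm2 stood at -0.33 (adjusted p = 0.114), Mcm7 at -0.14 (0.207) and Cdc45 at 0.02 (0.947). The replicates of Cdc45 lay on either side of 0 at 72 h, at -0.05 and 0.10 (95% interval of the change -0.24 to 0.28).

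The 5 called probes were 55.6% of 9, against 15.3% of all probes. The calls of Mcm3 and Mcm6 at 72 h held when any 1 RNA was left out. Mcm4 was not called without replicate 1 at 72 h (-0.49, adjusted p = 0.15) or replicate 2 at 0 h (-0.53, 0.119), nor was Gins2 probe B (-0.36 and -0.37, adjusted p = 0.112 and 0.0962). Mcm5 was not called without replicate 1 at 72 h (-0.16, 0.55) or replicate 1 or 2 at 0 h (-0.40 and -0.28, 0.0724 and 0.288). With arrays scaled to equal spread Mcm5 was not called (-0.26, 0.138). Over the FI-Delta course 7 of 45 member results were called, 2 without replicate 2 at 0 h and 4 without replicate 1 at 72 h. Markers of myeloid cells moved at the same time: 5 of 9 late neutrophil probes rose (median 1.31), and 5 of 8 macrophage probes rose and 1 fell. Of mast cell and basophil probes 4 of 7 fell, as did 2 of 7 primary granule probes, which mark progenitors. Their part in the member result was not tested.

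**Figure D2:**
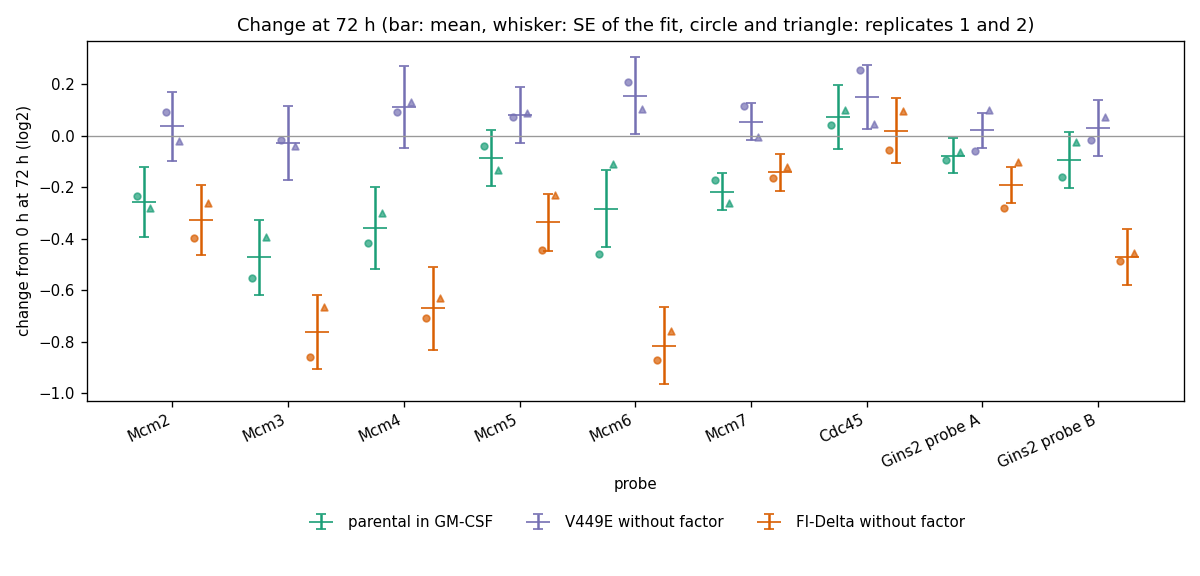
Change from 0 h to 72 h (log2) of each probe in parental cells in GM-CSF (green), V449E cells (purple) and FI-Delta cells (orange); the bar is the mean of 2 replicates, the whisker the standard error of the fit, and circle and triangle are replicates 1 and 2. FI-Delta values for Mcm3, Mcm4 and Mcm6 lie between -0.87 and -0.63, V449E values for these genes between -0.04 and 0.21, and the mean for Cdc45 is 0.07 in parental, 0.15 in V449E and 0.02 in FI-Delta cells.

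The direct comparison of V449E with FI-Delta cells at the same hour asks whether the mutant lines differ. At 72 h Mcm3, Mcm4, Mcm6 and Gins2 probe A were higher in V449E cells. Mcm6 differed by 1.01 and 0.57 (1.73-fold, log2 0.79, SE 0.15, adjusted p = 0.00061), and Mcm3 by 0.76 and 0.38 (1.49-fold, log2 0.57, SE 0.14, adjusted p = 0.00694). Mcm4 differed by 0.67 and 0.31 (1.41-fold, log2 0.49, SE 0.16, adjusted p = 0.038), with 3 of 4 direct arrays above 0. The levels of these 3 genes, picked as called, did not overlap between the lines. The share of all probes without overlap was not counted, so this adds nothing to the test.

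Gins2 probe A differed by 0.27 and 0.23 at 72 h (1.19-fold, log2 0.25, SE 0.07, adjusted p = 0.013) and by 0.25 and 0.19 at 48 h (1.17-fold, log2 0.22, SE 0.07, adjusted p = 0.0481). Probe B stood at 0.26 at 72 h (adjusted p = 0.106) and 0.05 at 48 h. Cdc45 lay below 0 at each of the 6 times, from -0.30 at 0 h to -0.12 at 24 h, with no call. Mcm2, Mcm5 and Mcm7 stood at 0.14, 0.15 and 0.09 at 72 h.

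The 4 calls at 72 h were 44.4% of 9 probes, against 16.7% of all probes, and the 1 call at 48 h was 11.1%, against 8.28%. By limma no member was called at 0, 6, 12 or 24 h, where the background was 0.225%, 0.817%, 1.11% and 3.37%. At these times 3, 2, 2 and 2 of 9 had an unadjusted p under 0.05 by limma, against 1178, 1804, 2147 and 2976 of all 21797 probes. The early direction was the opposite of that at 72 h. Of the 9 probes, 8 were lower in V449E cells at 0 h (median -0.22), 8 at 6 h (-0.19) and 6 at 12 h (-0.12). At 24 h 8 were higher (median 0.13). The Mcm6 difference at 72 h held when any 1 RNA was left out. Without replicate 1 of the FI-Delta cells at 72 h, Mcm3 (0.38, adjusted p = 0.193), Mcm4 (0.31, 0.395) and Gins2 probe A (0.20, 0.171) were not called. Mcm4 was also not called without replicate 1 or 2 of the V449E cells at 72 h (0.48 and 0.50, adjusted p = 0.139 and 0.133), and Gins2 probe A without replicate 2 of them (0.22, 0.122). At 48 h the call of Gins2 probe A was lost without any 1 of the 4 RNAs (0.19 to 0.25, adjusted p 0.109 to 0.277), and also with levels weighted by arrays (0.22, 0.0854), arrays scaled (0.20, 0.0793) or both Gins2 probes averaged (0.14, 0.24). At 72 h, scaling ended the calls of Mcm4 (0.43, 0.0988) and Gins2 probe A (0.19, 0.0816), and weighting that of Mcm4 (0.49, 0.0669). Late neutrophil probes were lower in V449E cells at 48 h (9 of 9, median -2.62), with 4 of 7 mast cell and basophil probes higher and 1 of 8 macrophage probes lower. At 72 h 8 of 9 late neutrophil probes were lower in V449E cells (median -2.57) while 4 of 7 mast cell and basophil probes were higher and the macrophage list was split (2 of 8 higher, 4 lower); their part in the member result was not tested.

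The test of whether the change over time itself differed between FI-Delta and V449E cells called Mcm3 and Mcm6 at 72 h. The change of Mcm6 was lower in FI-Delta cells by 1.08 and 0.86 in the replicates (log2 -0.97, SE 0.21, adjusted p = 0.0122), and that of Mcm3 by 0.84 and 0.63 (log2 -0.73, SE 0.20, adjusted p = 0.0457). Mcm4 had the like size but did not pass (-0.78, adjusted p = 0.0575), nor did Gins2 probe B (-0.50, 0.0717). The 2 calls were 22.2% of 9 probes, against 3.59% of all probes. These differences take in the levels at 0 h, whose means were lower in V449E than in FI-Delta cells, without a call. They were 0.01 and 0.20 for Mcm6, and 0.07 and 0.23 for Mcm3.

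At 6, 12, 24 and 48 h limma called no member in this difference, with a background of 0%, 0%, 0.00918% and 0.385%. At these times 0, 0, 4 and 1 of 9 had an unadjusted p under 0.05 by limma, against 151, 324, 843 and 1706 of all 21797 probes. The Mcm6 difference was not called without replicate 1 of the FI-Delta or V449E cells at 72 h (-0.82 and -0.89, adjusted p = 0.0956 and 0.0581) or replicate 2 of either at 0 h (-0.88 and -0.95, 0.0726 and 0.0888). The Mcm3 difference kept its call only without replicate 2 of the FI-Delta cells at 72 h; without each of the other 7 RNAs it lay between -0.83 and -0.54 with adjusted p from 0.0638 to 0.274. Without that same RNA, Mcm4 (-0.96, adjusted p = 0.0373) and Mcm5 (-0.59, 0.0458) were called. With arrays scaled to equal spread neither difference was called (Mcm6 -0.81, adjusted p = 0.102; Mcm3 -0.58, 0.231), and on the first print run alone Mcm3 was not (-0.72, 0.0725).

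Against the parental change, no member passed limma's test for either mutant line, and all with an unadjusted p under 0.05 were at 72 h, 2 of 9 for FI-Delta and 3 of 9 for V449E. Of all 21797 probes, 792 and 1782 had such a p at 72 h. For FI-Delta the background was 0% at 6, 12 and 24 h and 0.00459% at 48 and 72 h. For V449E it was 0% at 6 and 12 h, 0.0459% at 24 h, 0.239% at 48 h and 0.629% at 72 h. At 72 h the Mcm6 change was lower in FI-Delta than in parental cells by 0.41 and 0.65 (log2 -0.53, SE 0.21, unadjusted p = 0.0197, adjusted p = 1).

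FI-Delta cells were also set against parental cells hour by hour, with replicate 1 of these direct arrays on the first print run and replicate 2 on the second. All 54 member values lay below 0, against 48.9% to 52% of all probes by time. They come from 9 probes on shared RNAs, so they are not separate results. In both replicates 7 of 9 probes lay below 0 at 0 and 6 h, 5 at 12 h, 9 at 24 and 48 h and 8 at 72 h. The 3 values that passed were Mcm6 at 48 h and Mcm6 and Mcm3 at 72 h. Mcm6 differed by -0.77 and -0.61 at 48 h (log2 -0.69, SE 0.15, adjusted p = 0.0464) and by -1.02 and -0.75 at 72 h (1.85-fold lower, log2 -0.89, SE 0.15, adjusted p = 0.00361). Mcm3 differed by -0.68 and -0.56 at 72 h (1.54-fold lower, log2 -0.62, SE 0.14, adjusted p = 0.0369). Levels of both genes at 72 h did not overlap between the lines, but the share of all probes without overlap was not counted. The direct dye-swap pairs gave, on the first and second run, -0.85 and -0.58 for Mcm6 at 48 h, -1.09 and -0.68 for Mcm6 at 72 h and -0.55 and -0.68 for Mcm3 at 72 h.

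The other ring genes lay in the same direction without passing: at 72 h Mcm4 stood at -0.61 (adjusted p = 0.0688), Mcm5 at -0.41 (0.0722) and Mcm2 at -0.32 (0.348), and Gins2 probe B at -0.42 (0.0614). Cdc45 stood at -0.40 (0.147) and Mcm7 at -0.04. At 24 h, 7 of 9 probes had an unadjusted p under 0.05 and none was called, the largest being Mcm6 at -0.56 (adjusted p = 0.137). The called share was 11.1% at 48 h, against 0.289% of all probes, and 22.2% at 72 h, against 0.885%. At 0, 6, 12 and 24 h limma called no member, and the background was 0.106%, 0.491%, 0.307% and 0.174%. At these times 3, 1, 2 and 7 of 9 had an unadjusted p under 0.05 by limma, against 696, 1623, 1611 and 2097 of all 21797 probes.

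Without replicate 1 of the FI-Delta cells at 72 h neither Mcm6 (-0.73, adjusted p = 0.157) nor Mcm3 (-0.43, 0.597) was called at that time, and without replicate 2 of the parental cells Mcm3 was not (-0.49, 0.321). The Mcm6 call at 48 h was lost without any 1 of the 4 RNAs (-0.79 to -0.58, adjusted p 0.0854 to 0.227). That call was also lost with levels weighted by arrays (adjusted p = 0.157), on the first print run alone (-0.82, 0.0599) and with robust variances (0.0501). Mcm3 at 72 h was not called with levels weighted (0.0882), arrays scaled (-0.57, 0.0682) or the first run alone (-0.49, 0.34). Without replicate 2 of the FI-Delta cells at 72 h Mcm5 was called (-0.58, 0.0219). At 72 h 1 of 7 mast cell and basophil probes was lower in FI-Delta cells (Cpa3, -1.27), and its part in the result was not tested.

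Before IL-3 was removed, Cdc45 was lower in V449E than in parental cells, and 8 of 9 probes lay below 0 in both replicates. Cdc45 differed by -0.68 and -0.61 (1.56-fold lower, log2 -0.64, SE 0.13, adjusted p = 0.0133), below 0 on 8 of 8 direct arrays. This comparison was repeated on both print runs: the dye-swap pairs of replicate 1 gave -0.75 on the first run and -0.55 on the second, and those of replicate 2 gave -0.85 and -0.34. The difference thus had 1 direction on both runs and was smaller on the second.

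Mcm4 stood at -0.59 (adjusted p = 0.101), Mcm6 at -0.54 (0.108), Mcm3 at -0.50 (0.13), Mcm2 at -0.47 (0.129) and Mcm5 at -0.43 (0.067). By limma 8 of the 9 probes had an unadjusted p under 0.05, against 1869 of all 21797 probes. The exception was Gins2 probe A at 0.03. The 1 call was 11.1% of 9 probes, against 0.734% of all probes. Cdc45 was not called without replicate 1 or 2 of the V449E cells (-0.58 and -0.71, adjusted p = 0.278 and 0.0588) or replicate 2 of the parental cells (-0.62, 0.126), and Mcm5 was called without replicate 1 of the parental cells (-0.59, 0.0256). Here 4 of 9 late neutrophil probes were lower in V449E cells (median -2.03), and their part in the result was not tested.

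**Figure D3:**
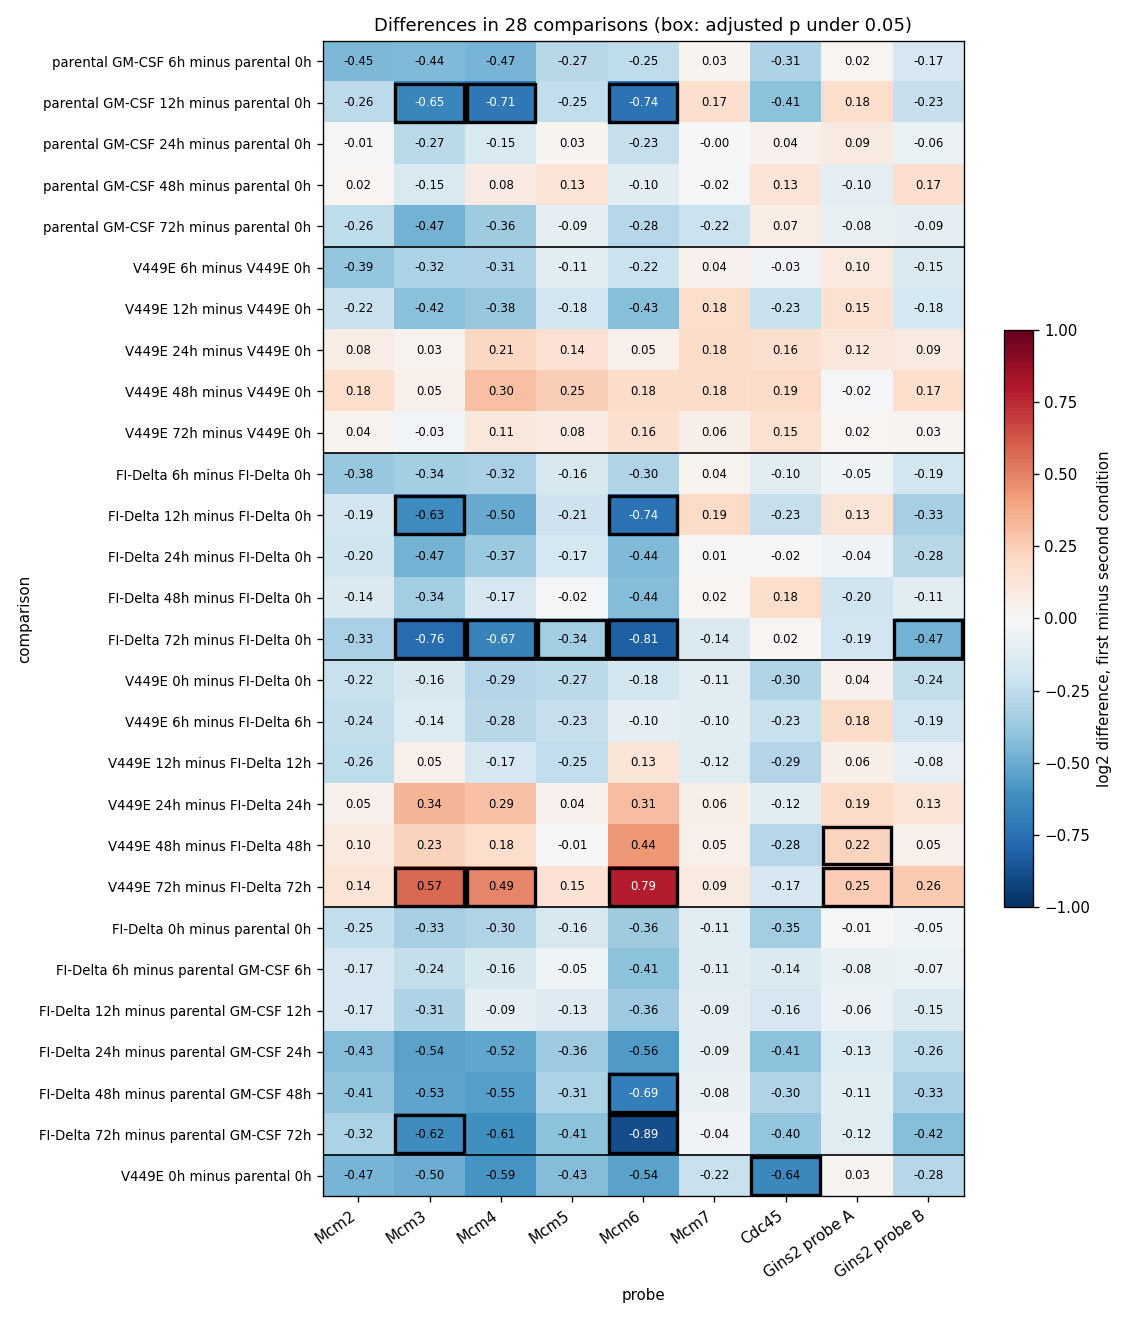
Log2 difference (first minus second condition) of each probe in the 28 comparisons made on arrays, grouped by lines into the GM-CSF, V449E and FI-Delta courses, V449E against FI-Delta, FI-Delta against parental, and V449E against parental at 0 h; a black box marks an adjusted p under 0.05. Boxes stand at 12 h in the GM-CSF and FI-Delta courses, at 72 h in FI-Delta cells, and in the rows for 48 and 72 h that set FI-Delta against the other lines, and Cdc45 is boxed in V449E against parental cells at 0 h.

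The size of the return after the 12 h trough was read from 48 h minus 12 h within each line, comparisons added after the data were seen. Since the times follow the members' own trough and return, calls and called shares here lean towards the members in each line. In GM-CSF, Mcm3, Mcm4, Mcm5, Mcm6, Cdc45 and Gins2 probe B rose and Gins2 probe A fell. Mcm4 rose by 0.86 and 0.73 (1.74-fold, log2 0.80, SE 0.16, adjusted p = 0.00536), Mcm6 by 0.82 and 0.45 (log2 0.63, adjusted p = 0.0141) and Cdc45 by 0.65 and 0.43 (log2 0.54, adjusted p = 0.0121). Mcm3 rose by 0.50 (adjusted p = 0.0348), Mcm5 by 0.38 (0.0361) and Gins2 probe B by 0.39 (0.0296). These 7 of 9 calls (77.8%) stood beside 7.85% of all probes, for which the times were not chosen, so the shares are not a fair contrast.

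In V449E cells Mcm4 rose by 0.36 and 1.00 (log2 0.68, adjusted p = 0.0266), Mcm6 by 0.55 and 0.68 (log2 0.61, 0.033) and Mcm5 by 0.45 and 0.41 (log2 0.43, 0.0387), 33.3% of 9 against 1.98% of all probes. In FI-Delta cells Mcm6 stood at 0.19 and 0.42 and Mcm4 at 0.11 and 0.56, neither called, and Gins2 probe A fell by 0.34 and 0.31 (log2 -0.33, adjusted p = 0.0221), 11.1% of 9 against 0.991%. From 48 to 72 h in FI-Delta cells no member was called by limma, the values for Mcm4 being -0.73 and -0.28, and the background was 0.335%. Here 6 of 9 had an unadjusted p under 0.05 by limma, against 2724 of all 21797 probes. Whether the return differed between lines was not tested.

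In GM-CSF, 7 calls became 0 without replicate 1 at 48 h or at 12 h: Mcm4 stood at 0.74 and 0.78 (adjusted p = 0.0521 and 0.0604), Mcm6 at 0.53 and 0.54, Cdc45 at 0.50 and 0.46, Mcm3 at 0.57 and 0.48, Mcm5 at 0.43 and 0.32, Gins2 probe A at -0.21 and -0.23 and probe B at 0.30 and 0.28. Without replicate 2 at 48 h or 12 h, Mcm3 (0.44 and 0.53) and Mcm5 (0.33 and 0.44) were not called. In V449E cells Mcm4 was not called without replicate 2 at 48 h or 12 h (0.54 and 0.48), and Mcm5 and Mcm6 were not called without any 1 of the 4 RNAs (0.37 to 0.50 and 0.52 to 0.70). The FI-Delta call of Gins2 probe A was likewise lost without any 1 of 4 (-0.35 to -0.30). Without replicate 1 at 12 h, Cdc45 was called in FI-Delta cells (0.61, adjusted p = 0.0349), and without replicate 1 at 48 h Gins2 probe B was called in V449E cells (0.52, 0.0368). Weighting levels by arrays left 2 of the 11 calls and the first print run alone left 5. With both Gins2 probes averaged, neither probe's call stood in GM-CSF (0.0577, adjusted p = 0.625), nor that of probe A in FI-Delta cells (-0.056, 0.744).

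Mcm7 and Gins2 probe A stood apart from the other 7 probes at 12 h. Mcm7 changed by 0.14 and 0.20 in GM-CSF, 0.15 and 0.21 in V449E cells and 0.23 and 0.15 in FI-Delta cells. Gins2 probe A changed by 0.25 and 0.11, 0.15 and 0.15, and 0.08 and 0.18. All 12 values were above 0 while those of Mcm3 and Mcm6 at 12 h were all below 0, though none of the Mcm7 or probe A changes at 12 h passed the test (adjusted p from 0.132 to 0.404). At 72 h in GM-CSF Mcm7 stood at -0.17 and -0.26 against its start (log2 -0.22, adjusted p = 0.0834), without a call.

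Other genes of DNA replication were listed by role, 76 genes on 79 probes, with the list drawn up when results of these data were already known. At 72 h in FI-Delta cells 22 of the 79 probes fell and 1 rose, with a median of -0.21, against a median of 0.00 over all probes, of which 1854 of 21797 fell and 15.3% were called in either direction. At 12 h, 7 fell in GM-CSF (median -0.14; 2.92% of all probes called) and 9 fell in FI-Delta cells (median -0.17; 5.06% of all called), with none rising. None passed in V449E cells at 12 h (median -0.10; 1.28% of all called). In V449E against FI-Delta cells at 72 h, 9 were higher and 2 lower (median 0.12), a share near that of all probes (16.7%).

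By role at 72 h in FI-Delta cells, 1 of 12 licensing probes fell, Orc4 of the origin recognition complex (-0.24). Among partners of the helicase 3 of 8 fell, led by Timeless, part of the fork protection complex (-0.46), and among firing factors 1 of 6, the kinase activator Dbf4 (-0.31). Among polymerase probes 6 of 13 fell, led by Pole2, a subunit of polymerase epsilon (-0.43). In the clamp and ligation list 7 of 15 fell, led by the clamp loader subunit Rfc5 (-0.51). Among nucleotide supply genes 1 of 7 fell, Dut, which removes dUTP (-0.60). Set against the 15.3% of all probes called, single calls in a list are near the background and say nothing of that list.

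Of 18 probes for E2F factors, cyclins and their regulators 3 fell, and Rb1, the retinoblastoma protein that restrains E2F, rose by 0.45 (adjusted p = 0.00705 by limma). Calls in this list were not far from the 15.3% of all probes called. Rb1 was named as the largest called change of the list, and its part in the member result was not tested. Of 16 mitosis probes 1 fell, the spindle checkpoint kinase Bub1 (-0.49). In V449E cells the one call among all these lists was Top2a, the topoisomerase of chromosome segregation, which fell at 12 h by 0.77 (adjusted p = 0.00668). Licensing and firing genes had list medians of -0.14 and -0.14 at 72 h in FI-Delta cells, and the polymerase list -0.29, beside -0.34 for the 9 helicase probes. The differences between these lists were not tested.

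**Figure D4:**
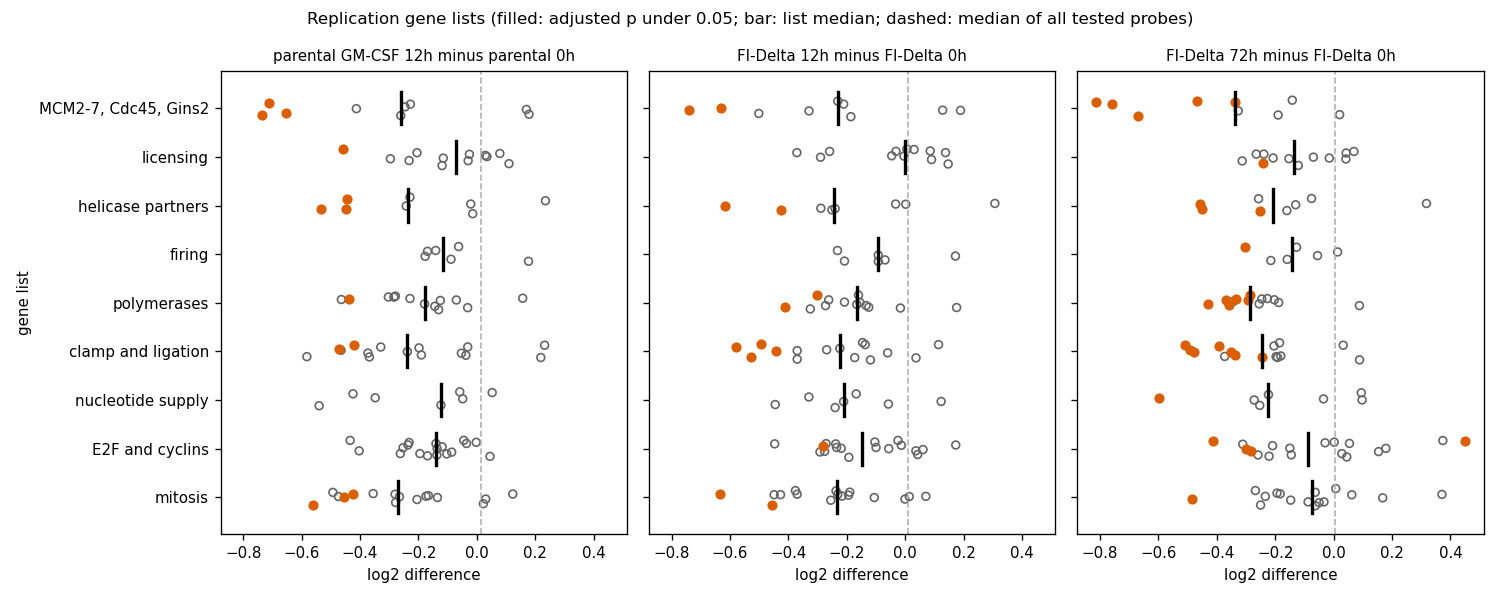
Log2 difference of each probe in the helicase genes and in 8 lists of replication and mitosis genes, at 12 h in GM-CSF, at 12 h in FI-Delta cells and at 72 h in FI-Delta cells, each minus 0 h; filled points have an adjusted p under 0.05, bars are list medians and the dashed line is the median of all probes. At 72 h the helicase probes reach -0.81 and the list medians run from -0.08 for mitosis to -0.34 for the helicase genes.

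The mean profile of the 9 member probes over the 18 conditions was compared with every named probe. Among the 8 non-member probes most like it were Pold3, a polymerase delta subunit (r = 0.97), Tafa5 (0.96), the chromatin remodeller Hells (0.95), the clamp loader subunit Rfc3 (0.95), the histone methyltransferase Suv39h2 (0.95), Slbp, which binds histone mRNA (0.94), and the mitochondrial ribosomal protein Mrpl49 (0.94). The points share the same 36 RNAs, and no test was made. Among the members, Mcm4 (0.97), Gins2 probe B (0.96), Mcm5 (0.95), Mcm3 (0.95), Mcm2 (0.91) and Mcm6 (0.91) followed the mean profile, of which they are part, Cdc45 less (0.79), and Mcm7 (0.32) and Gins2 probe A (-0.11) did not.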

How the data were processed

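The deposited values were taken as log2 ratios of Cy5 over Cy3 per array and probe, normalised by the authors; base and direction are not given in the sources used here and were taken as likely from the labels' dyes. The submitters' processing notes name limma without a version, and the method of normalisation and the build are not given. Per the labels, slides came from 2 print runs (90 and 26 arrays). Of 23040 probes, 1243 controls were left out. Genes were named from the platform annotation: 16651 probes had 1 symbol, 137 several and 5009 none.

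Dye-swap pairs were averaged after turning each ratio the same way. As no array set replicate 1 against replicate 2, levels of 36 RNAs (each on 4 to 16 arrays) were solved by least squares within each replicate, and limma 3.58.1 in R 4.3.3 was fitted to them with condition and replicate as terms (17 residual degrees of freedom), with Benjamini-Hochberg adjustment over 21797 probes per comparison and a threshold of 0.05. Across probes, a difference had a median standard error of 0.09, which rests on the scatter between 2 RNAs per condition. The fit was also run on simulated data with 200 changed probes. The outcome of that run is not given here, so it lends no weight to the p-values. Array medians lay between -0.02 and 0.01. The correlation of dye-swapped arrays ran from -0.65 to -0.03 over all probes.

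The members, gene lists and tests were chosen with earlier results of these data known. Named genes were all member probes, in each role list the probe with the largest called change at 72 h in FI-Delta cells and in the V449E course, and the 8 probes most like the mean member profile (over members with r of at least 0.5 between replicates, which all had); 1 of these 8 is not reported here, and Elane and Cpa3 were named after their values were seen. Alternatives were no replicate block, each RNA left out, levels weighted by arrays, a fit of dye-swap pairs, arrays centred or scaled, the first print run alone, directly hybridised arrays alone, robust variances and probes averaged by symbol. An RNA left out was dropped from the limma fit only. Its arrays still entered the least squares that gave the levels of the other RNAs of its replicate.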

Additional observations from a re-analysis of the deposited data

Results flagged for a closer look

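The change from 0 h to 72 h of Mcm6 differed between FI-Delta and V449E cells, by -0.97 on the log2 scale (SE 0.21, adjusted p = 0.0122 by limma), with -1.08 and -0.86 in the replicates. The change of Mcm3 differed by -0.73 (SE 0.20, adjusted p = 0.0457), with -0.84 and -0.63. Both were singled out because a test of the difference between the lines passed the threshold. With arrays scaled to equal spread neither passed (Mcm6 -0.81, adjusted p = 0.102; Mcm3 -0.58, 0.231). When each of 8 RNAs was left out in turn, Mcm6 stayed called in 4 fits and Mcm3 in 1.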

How the results depend on the processing

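Of 423 member results 32 were called. Centring the arrays changed no call, and without the replicate block no call was lost and 4 were gained. Robust variances lost 1 call, scaling the arrays lost 9, arrays of the first print run alone lost 10 and gained 2 (this also drops replicate 2 of all 5 GM-CSF conditions, whose lone samples are assumed to vary like the others), weighting levels by arrays lost 13 and gained 24, and fitting dye-swap pairs, which treats pairs of the same RNAs as replicates, lost 2 and gained 94. The numbers of called member results that moved by more than 1.5 times were as follows. Without the replicate block, V449E against parental cells at 0 h had 2 in place of 1. With levels weighted by arrays, there were 5 in place of 3 in the GM-CSF course, 15 in place of 7 in the FI-Delta course, 8 in place of 1 in V449E against parental cells, 4 in place of 2 in differences between courses and 2 in place of 11 in later against earlier times. With dye-swap pairs fitted, the GM-CSF course had 12, the V449E course 7 in place of 0, the FI-Delta course 23, V449E against FI-Delta 17 in place of 5, FI-Delta against parental cells 25 in place of 3, V449E against parental cells 8, and the differences 23. With arrays scaled, V449E against FI-Delta had 2 and the differences 0. With the first print run alone, FI-Delta against parental cells had 1, V449E against parental cells 3, the differences 1 and later against earlier times 5. When any 1 RNA was left out, which leaves a lone sample assumed to vary like the others, the numbers ran from 0 to 4 in the GM-CSF course, 0 to 0 in the V449E course, 2 to 8 in the FI-Delta course, 2 to 5 in V449E against FI-Delta, 1 to 5 in FI-Delta against parental cells, 0 to 2 in V449E against parental cells, 0 to 4 in the differences and 4 to 11 in later against earlier times. Averaging both Gins2 probes turned the probe A difference of 48 h minus 12 h in GM-CSF from -0.28 to 0.0577, since the average takes in probe B; it ended 3 other calls, of probe B there (0.0577, adjusted p = 0.625), of probe A in FI-Delta cells from 12 to 48 h (-0.056, 0.744) and of probe A in V449E against FI-Delta cells at 48 h (0.14, 0.24), and gained 6. The cause of the other changes was not tested. Directly hybridised arrays alone give values with no test.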
